A study of Mus musculus with 12 samples.

Results

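The 43 genes described here encode the machinery that licenses, starts and carries out DNA replication in S phase, with the enzymes that make its building blocks and the cyclins and E2F1 that open the phase. They were chosen by gene symbol for their role in replication, and all 43 of 43 symbols were found in each of the authors' 5 tables, which together list 16399 symbols. The genes fall by role into 11 for origin licensing, 5 for helicase activation, 6 polymerase and primase subunits, 10 for the sliding clamp, its loader, single-strand binding and ligation, 4 for deoxynucleotide synthesis, 4 for chromatin assembly and histone mRNA, and 3 G1/S regulators.

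All samples were cultures of MC38, a mouse colon carcinoma line, taken from tumours in animals of the C57BL/6 albino strain. The animals' age is not stated in these sources. Tumours were broken up, and fragments of 40 to 100 µm were held in collagen at 2.8 mg/mL in a microfluidic chip for 6 days, with 300 µL of treated medium per well. The 4 groups held 3 samples each: control antibody (IgG, clone 2A3, 10 µg/mL), PD-1 antibody (aPD-1, RMP1-14, 10 µg/mL), the same PD-1 antibody with a CD8 antibody (aPD-1+CD8, 10 µg/mL of each), and interferon-gamma protein (IFNg, 100 ng/mL). Every group thus received an added protein, and the labels name no control antibody in the IFNg wells or beside the PD-1 antibody. PD-1 is an inhibitory receptor on T cells, and CD8 marks cytotoxic T cells. RNA came from whole cultures, so a lower value can mean fewer cells of a type or less RNA per cell, and these cannot be told apart. The labels do not say whether a group's 3 samples were separate cultures or animals, so each p-value speaks only to the spread among these samples, and that spread may be technical.

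Replication is prepared in G1, when the origin recognition complex (ORC), Cdc6 and Cdt1 load the ring-shaped MCM helicase onto DNA. At the start of S phase Cdc45 and the GINS complex switch the ring on, DNA polymerase alpha-primase lays down the first primers, and polymerases delta and epsilon extend them while held by the PCNA clamp. Most of these genes are textbook targets of E2F transcription factors, which are released from the retinoblastoma protein when cyclin D and cyclin E kinases become active, so their mRNAs are known to rise and fall together in dividing cells.

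Some promoters of these genes carry letters of the kind that E2F factors are known to bind, and 5 of them are printed in part to show where those letters lie. Promoter windows from RefSeq (build GRCm38.p6, 250 bases before to 50 after the annotated start) matched 36 of the 43 members. Missing entries were Gins1, Gins2, Pole, Prim2, Mcm4, Rfc2 and Ccne2. Each line is a part of the window and runs 5′ to 3′ on the strand of the gene. It begins shortly before the first marked word and ends at the last base before the start. Capitals mark any of the words TTTCCCGC, TTTGGCGC, TTTGCCGC and TTTCGCGC, forms of the E2F motif, on either strand.
Mcm5, chr8:75109336-75109508, plus strand: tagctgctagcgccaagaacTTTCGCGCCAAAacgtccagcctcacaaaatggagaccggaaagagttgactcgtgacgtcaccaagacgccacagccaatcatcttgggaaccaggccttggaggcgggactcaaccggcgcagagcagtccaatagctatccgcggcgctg
Mcm6, chr1:128359706-128359835, minus strand: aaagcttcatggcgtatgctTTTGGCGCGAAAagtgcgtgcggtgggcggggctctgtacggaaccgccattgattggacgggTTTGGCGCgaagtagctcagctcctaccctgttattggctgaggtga
Pola1, chrX:93632156-93632313, minus strand: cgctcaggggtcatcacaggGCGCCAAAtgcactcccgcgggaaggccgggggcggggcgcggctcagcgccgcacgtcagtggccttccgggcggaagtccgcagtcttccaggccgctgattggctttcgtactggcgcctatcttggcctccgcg
Cdc6, chr11:98907993-98908150, plus strand: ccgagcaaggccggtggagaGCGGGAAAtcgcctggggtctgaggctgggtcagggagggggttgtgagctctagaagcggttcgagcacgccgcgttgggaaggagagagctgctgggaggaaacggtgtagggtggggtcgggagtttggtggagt
Orc1, chr4:108579407-108579453, plus strand: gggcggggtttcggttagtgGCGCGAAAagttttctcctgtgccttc
In Mcm5 the words TTTCGCGC and, on the other strand, TTTGGCGC overlap in 1 stretch of 12 bases, and Mcm6 has such a stretch plus a separate word nearer the start. An E2F word lay in the window of 13 of 36 members (36.1%), against 434 of 8965 genes tested in aPD-1 v IgG (4.84%), 704 of 27025 genes with a RefSeq window (2.61%) and 744 of all 32851 windows of this length (2.26%). Among the G2 and mitosis genes used for comparison, 1 of 29 had one (3.45%). A different word, TTTGAA, the core of the CHR element known from mitotic promoters, was in 21 of 29 G2 and mitosis windows (72.4%), 4 of 36 member windows (11.1%), 14.0% of the windows of genes tested and 20.2% of all genes' windows. The CCAAT box was in 23 of 36 member windows (63.9%), 43.4% of the windows of genes tested and 41.1% of all genes' windows. It was in 22 of 29 G2 and mitosis windows (75.9%), a larger share than in the members. Of the other replication genes described below, 16 of 35 windows had it (45.7%). A match is a description of the letters, not of a bound site.

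The values come from the authors' own comparisons by DESeq2: a mean normalized count per gene over both groups, a log2 fold change and its standard error (SE), and a Wald p adjusted over all genes by the Benjamini-Hochberg method. A gene is called here when that adjusted p is under 0.05. The mean counts summed to between 10292941 and 11590748 per table, and the depth of each library is not analysed here because the tables hold 0 columns of single samples. Mean counts of the members ran from 30.3 to 2852 in the aPD-1 v IgG table. The deposited fold changes look shrunken toward 0, most strongly in aPD-1+CD8 v IgG. Group means were therefore also worked out from the mean counts of the 5 tables, on a scale common to the tables. They carry no error and no test, and are given before the fold changes.

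Replication genes were lower in cultures given the PD-1 antibody. In the authors' deposited table for aPD-1 v IgG, 28 of the 43 members were called lower and 0 higher, while 10.0% of the 12024 genes tested were called lower and 8.50% higher. Their median log2 fold change was -0.59, with a range from -1.27 to 0.15, against 0.01 over all genes tested, and 42 of 43 lay below 0. Without adjustment, 31 members and 28.2% of all genes tested had a p under 0.05 in this DESeq2 test. In group means worked out from the tables, the median member stood at 66.9% of its IgG level with aPD-1, and aPD-1 was the lowest of the 4 groups for 38 of 43 members. The SE of the members' fold changes ran from 0.12 to 0.36, and the smallest change called was 0.44.

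**Figure D1:**
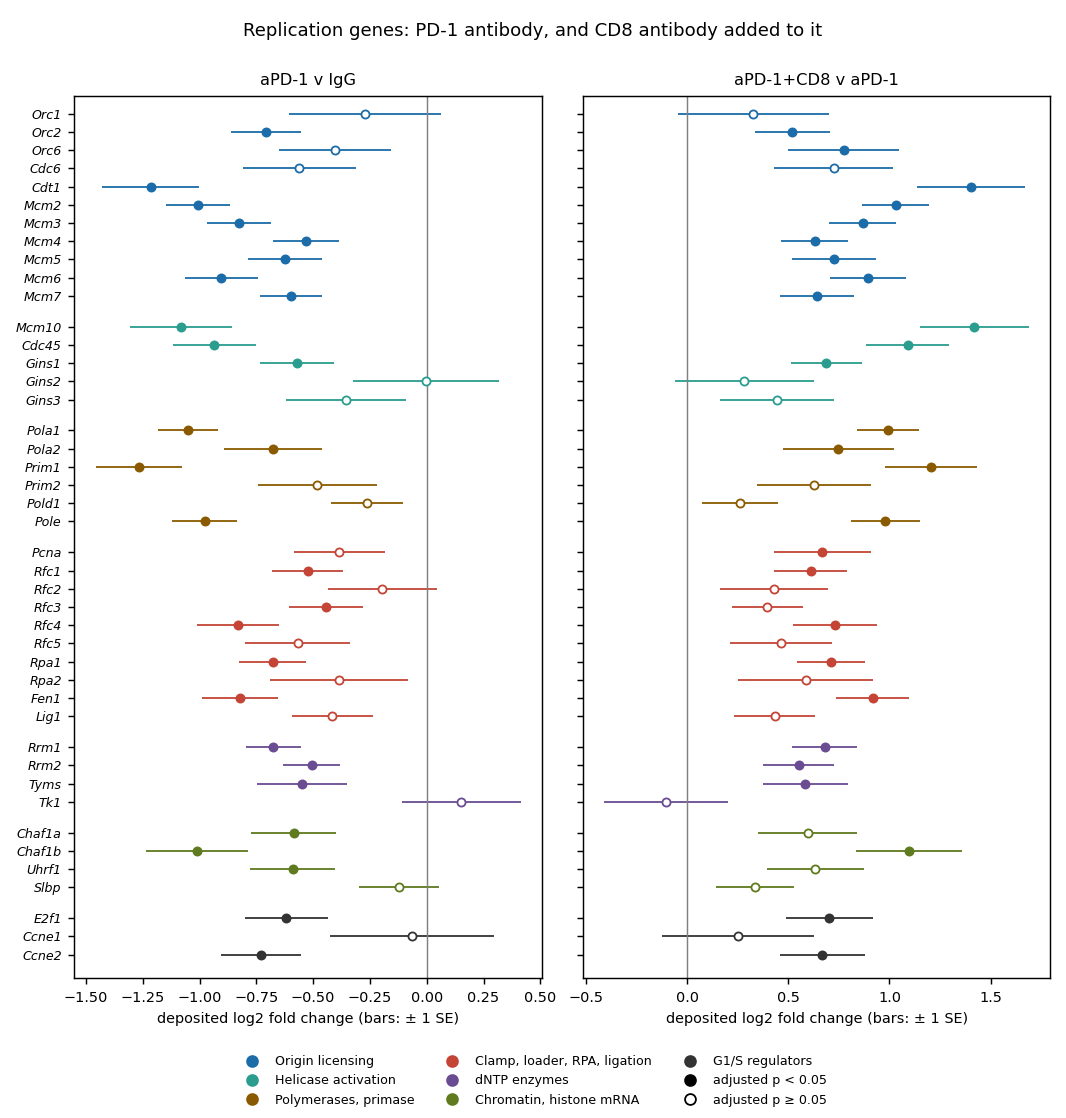
Deposited log2 fold change of each of the 43 members (points) with 1 SE on either side (bars), for aPD-1 v IgG on the left and aPD-1+CD8 v aPD-1 on the right, coloured by role; filled points have an adjusted p under 0.05 (DESeq2). In the left panel 28 filled points lie left of 0, and in the right panel 27 lie right of 0.

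Origin licensing was the largest role group, with 8 of 11 members called lower. All 6 subunits of the MCM2-7 ring were among them, with deposited log2 fold changes from -1.01 to -0.53. Mcm2, a subunit of that ring, had a group mean worked out as 1589 counts in IgG and 794 in aPD-1. Its log2 fold change in the authors' deposited table was -1.01 ± 0.14 (SE; adjusted p = 4.3e-11, DESeq2), a change several times its SE. Cdt1, which loads the ring onto DNA, went from 346 to 144 counts by group mean. The authors' deposited table gives it -1.22 ± 0.21 (adjusted p = 2.9e-07), the lowest value of the licensing genes. Mcm3 stood at 2413 and 1370 counts, and Mcm4 at 3358 and 2347. Of the ORC subunits, Orc2 fell by 0.71 ± 0.15 on the log2 scale (adjusted p = 8.3e-05) in the authors' deposited table. Orc1, the subunit measured at the lowest counts, had -0.27 ± 0.33 (adjusted p = 0.67) there and was not called, nor were Orc6 at -0.40 ± 0.25 and the loader Cdc6 at -0.56 ± 0.25. The 95% interval of Orc1, from -0.93 to 0.38, holds the values of 5 of the 6 MCM subunits.

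Of the genes that turn the loaded helicase on, Mcm10, Cdc45 and Gins1 were called lower, 3 of 5. Mcm10, an initiation factor, had group means of 151 counts in IgG and 68.6 in aPD-1. In the authors' deposited table its log2 fold change was -1.08 ± 0.22 (adjusted p = 2.7e-05). Cdc45, which completes the active helicase with GINS, stood at 278 and 145 counts, with -0.94 ± 0.18 (adjusted p = 6.3e-06) in the authors' deposited table. The GINS subunits, partners in 1 complex, were not all called: Gins1 fell by 0.57 ± 0.16 in the authors' deposited table, whereas Gins2 had 0.00 ± 0.32 (95% interval -0.63 to 0.63) and Gins3 -0.36 ± 0.26. Gins2 had only 30.0 and 30.8 counts by group mean, and whether the subunits differ in response was not tested.

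Of the polymerase and primase subunits 4 of 6 were called lower, and Prim1 had the lowest value of all 43 members. Prim1, the catalytic primase subunit, had a group mean of 269 counts in IgG and 109 in aPD-1, which is 40.4% of the IgG level. Its log2 fold change in the authors' deposited table was -1.27 ± 0.19 (adjusted p = 1.1e-09). Pola1, the polymerase alpha catalytic subunit, stood at 3255 and 1580 counts, and its -1.05 ± 0.13 had the smallest adjusted p of any member (1.8e-13) in the authors' deposited table. Pola2 was also called, and Prim2 was not, at -0.48 ± 0.26. The catalytic subunits of the 2 extending polymerases differed in what was called. Pole, of the leading-strand polymerase epsilon, went from 1461 to 746 counts and fell by 0.98 ± 0.14 (adjusted p = 3.1e-10) in the authors' deposited table. Pold1, of the lagging-strand polymerase delta, had 378 and 320 counts and -0.26 ± 0.16 (95% interval -0.57 to 0.05; adjusted p = 0.27) in that deposited table. Those 2 intervals do not meet, since that of Pole runs from -1.26 to -0.70, but the difference between the genes was not itself tested.

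Clamp, loader, single-strand binding and ligation genes were called lower for 5 of 10 members: Rfc1, Rfc3, Rfc4, Rpa1 and Fen1. Fen1, the flap nuclease that trims Okazaki fragments, had group means of 482 and 273 counts, with a log2 fold change of -0.82 ± 0.17 (adjusted p = 1.6e-05) in the authors' deposited table. Rfc4, a subunit of the clamp loader, fell by 0.83 ± 0.18 there (adjusted p = 6e-05 in the authors' deposited table). Pcna, the clamp and a widely used marker of proliferation, stood at 229 and 177 counts and was not called, at -0.39 ± 0.20 (95% interval -0.78 to 0.01; adjusted p = 0.19) in the authors' deposited table. Lig1, the ligase that seals the fragments, had -0.42 ± 0.18 (adjusted p = 0.088) and Rfc2 -0.20 ± 0.24 (adjusted p = 0.67) in the same deposited table. Rpa1 was called and Rpa2, its smaller partner, was not, at -0.38 ± 0.30.

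Among deoxynucleotide enzymes, both ribonucleotide reductase subunits and thymidylate synthase were called lower, 3 of 4. Rrm1, the large reductase subunit, had group means of 2325 counts in IgG and 1475 in aPD-1, and fell by 0.67 ± 0.12 (adjusted p = 1.1e-06) in the authors' deposited table. Rrm2 fell by 0.51 ± 0.13 and Tyms by 0.55 ± 0.20 in that deposited table. Tk1, the salvage thymidine kinase, was the 1 member above 0, at 0.15 ± 0.26 (95% interval -0.36 to 0.66; adjusted p = 0.78) in the authors' deposited table, with group means of 59.8 and 68.8 counts.

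Chromatin genes were called lower for 3 of 4 members. Chaf1b, a subunit of the CAF-1 histone chaperone, had group means of 138 and 65.5 counts, with -1.01 ± 0.22 (adjusted p = 0.0001) in the authors' deposited table. Its partner Chaf1a and Uhrf1, which brings DNA methylation to new strands, both had a deposited value of -0.59 ± 0.19. Slbp, which binds histone mRNA in S phase, had 388 and 362 counts and was not called, at -0.12 ± 0.18 (adjusted p = 0.72) in the authors' deposited table.

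Of the regulators, E2f1 and Ccne2 were called lower and Ccne1 was not. E2f1, itself a transcription factor of these promoters, stood at 324 counts in IgG and 212 in aPD-1, with -0.62 ± 0.18 (adjusted p = 0.006) in the authors' deposited table. Ccne2, 1 of the 2 E cyclins, had 297 and 178 counts and -0.73 ± 0.18 (adjusted p = 0.00042) in the authors' deposited table. Ccne1, the other E cyclin, had 31.5 and 30.6 counts and -0.07 ± 0.36 (adjusted p = 0.94) there, an SE that leaves a 95% interval from -0.77 to 0.64 in the authors' deposited table.

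Whether a member was called went with how strongly it was counted. Of 32 members that reached a mean count of 100 in the authors' deposited table for aPD-1 v IgG, 28 were called lower, where 15.0% of all 6155 such genes were. The 4 not called were Pcna, Pold1, Lig1 and Slbp. Under 100 counts, 0 of 11 members were called, where 4.87% of all such genes tested were called lower. The median log2 fold change of these 11 members was -0.36, against -0.68 in the better counted members. Their median SE was 0.26 against 0.17, so both size and SE differed between the count classes. E2F words were found in both kinds of member: 8 of 24 called members with a window had one (33.3%), and 5 of 12 uncalled ones (41.7%). The printed lines show both kinds, Mcm5, Mcm6 and Pola1 from called genes and Cdc6 and Orc1 from uncalled ones.

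**Figure D2:**
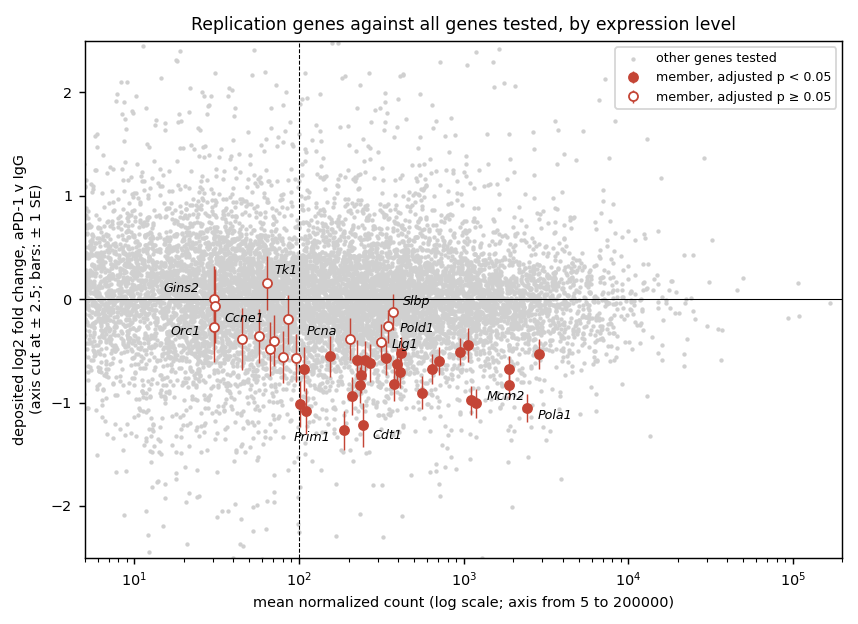
Mean normalized count (x, log scale) against deposited log2 fold change of aPD-1 v IgG (y, cut at 2.5 on either side) for all genes tested (grey) and the 43 members (red, bars 1 SE; filled where the adjusted p is under 0.05). The 28 filled members all lie right of the dashed line at 100 counts, and the 11 members left of it are open.

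Scores of this table were spread more widely than a standard normal, with a robust SD of 1.69 over all genes tested, and when Wald scores were divided by it 8 of the 43 members were called lower instead of 28. Those fold changes that reached a size of 1 on the log2 scale and passed the test numbered 6.

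Replication genes were higher where the CD8 antibody was added to the PD-1 antibody than with the PD-1 antibody alone. In the authors' deposited table for aPD-1+CD8 v aPD-1, 27 of 43 members were called higher and 0 lower, while 7.82% of the 11560 genes tested were called higher and 6.94% lower. The members' median log2 fold change was 0.67, from -0.10 to 1.42, against 0.00 over all genes tested. Of members with a mean count of at least 100, 24 of 30 were called higher, and 11.4% of all such genes were. This comparison shares its aPD-1 samples with aPD-1 v IgG, so the opposite signs in both are not independent of each other.

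By role, 9 of 11 licensing genes were called higher, 3 of 5 helicase genes, 4 of 6 polymerase genes, 5 of 10 clamp and loader genes, 3 of 4 nucleotide enzymes, 1 of 4 chromatin genes and 2 of 3 regulators. Mcm10 had the highest log2 fold change, 1.42 ± 0.27 (adjusted p = 5.3e-06) in the authors' deposited table, with group means of 68.6 counts in aPD-1 and 204 in aPD-1+CD8. Cdt1 followed at 1.40 ± 0.27 (adjusted p = 5e-06) in the authors' deposited table, from 144 to 421 counts. Both exceeded their IgG means of 151 and 346 counts on the scale used. These means carry no error, and neither gene was called in aPD-1+CD8 v IgG. Pola1 had the smallest adjusted p of the members, 6.5e-09, at 0.99 ± 0.15 in the authors' deposited table, with 1580 and 3165 counts. Mcm2 rose by 1.03 ± 0.17 (adjusted p = 3.2e-08) in that deposited table, to 1641 counts, and all 6 subunits of its ring were called. Cdc45 rose by 1.09 ± 0.20 (adjusted p = 3.4e-06) in the authors' deposited table, from 145 to 317 counts.

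Among the nucleotide enzymes Rrm1 rose by 0.68 ± 0.16 (adjusted p = 0.0004) in the authors' deposited table, from 1475 to 2370 counts. Fen1 rose by 0.92 ± 0.18 (adjusted p = 1.5e-05) in the authors' deposited table. Pcna, not called in aPD-1 v IgG, was called here at 0.67 ± 0.24 (adjusted p = 0.037) in the authors' deposited table, with 177 and 289 counts. Orc6 was likewise called here at 0.77 ± 0.27 (adjusted p = 0.036). Chaf1b was the 1 chromatin gene called, at 1.10 ± 0.26 (adjusted p = 0.00052) in the authors' deposited table. Uhrf1 at 0.63 ± 0.24 (adjusted p = 0.052), Chaf1a at 0.60 ± 0.25 and Slbp at 0.34 ± 0.19 were not called. E2f1 rose by 0.70 ± 0.22 (adjusted p = 0.012) and Ccne2 by 0.67 ± 0.21 (adjusted p = 0.014) in the authors' deposited table. Ccne1 had 0.25 ± 0.38 (adjusted p = 0.76) and Tk1 -0.10 ± 0.31 (adjusted p = 0.89) there, and Pold1 0.26 ± 0.19 (adjusted p = 0.42). Orc1 at 0.33 ± 0.37 (adjusted p = 0.66), Gins2 at 0.28 ± 0.34 (adjusted p = 0.69) and Rfc2 at 0.43 ± 0.27 (adjusted p = 0.32) were furthest from a call in their roles. With Wald scores divided by their robust SD of 1.59, 9 members were called higher, and 6 of the calls had a size of at least 1.

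Set against IgG, the combined treatment left no member called. The authors' deposited table for aPD-1+CD8 v IgG called 0 of 43 members in either direction, and 0 of 15304 genes were called higher (0%) or lower (0%). Without adjustment 0 members and 57 of all genes (0.37%) had a p under 0.05 in this DESeq2 test, and the smallest p of a member was 0.11. Scores of this table were spread more narrowly than a standard normal, with a robust SD of 0.72 over all genes tested. Such a test could call little, so the lack of calls carries little weight. Deposited fold changes of the members ran from -0.11 to 0.17 with a median of 0.04, but the largest SE of any gene in this table was 0.11, so these values are strongly shrunken and their intervals cannot be read as limits on the unshrunken change. Group means, which are not shrunken, put the members at a median of 108% of IgG (range 88.5% to 136%) with aPD-1+CD8, where the tables are brought to 1 scale, and at a median of 83.8% where they are not. Genes at large moved with that choice too: the median of the 5706 genes that reach a mean count of 100 was 100.3% on the common scale and 74.9% without it, below the members' median on both. Prim1 stood at 269 counts in IgG and 263 in aPD-1+CD8, Pole at 1461 and 1486, and Rrm1 at 2325 and 2370. Orc6 was furthest above IgG, at 80.6 and 109.7 counts, and Orc2 furthest below, at 508 and 449. A p that misses the threshold does not show that the 2 groups are alike.

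**Figure D3:**
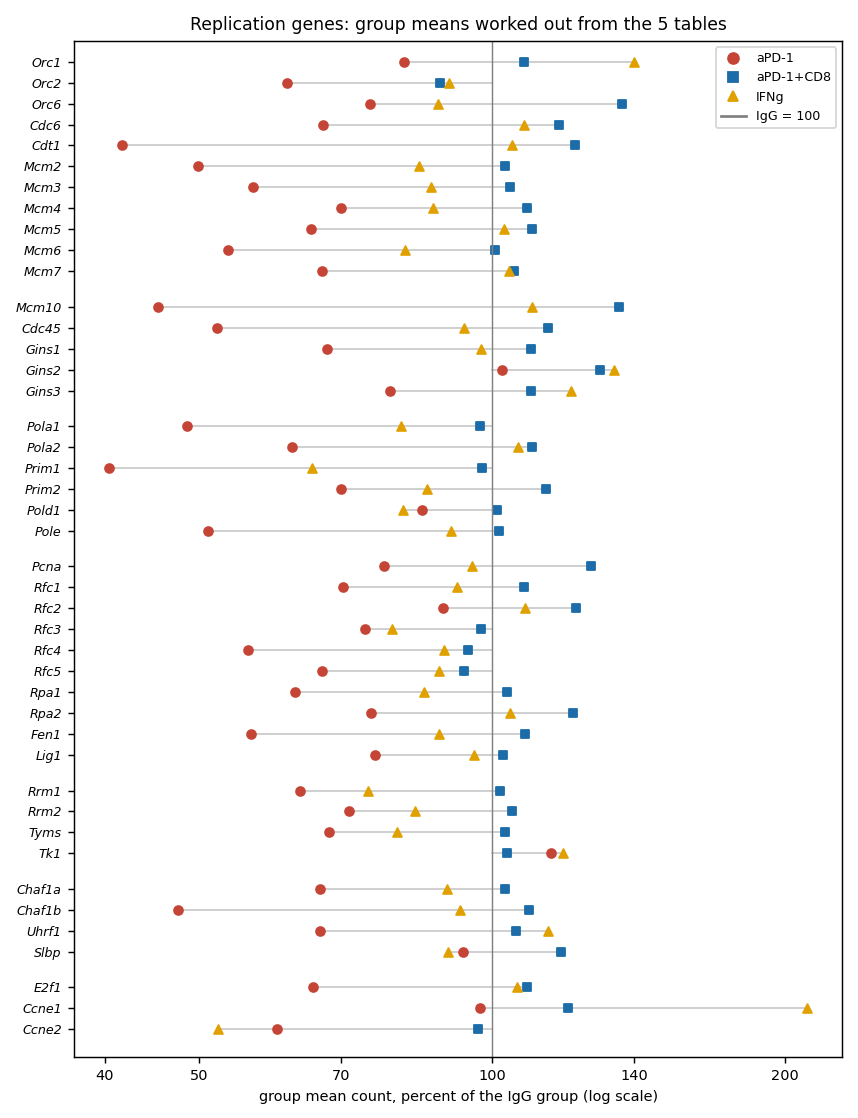
Group mean count of each of the 43 members as a percent of its IgG mean (log scale; the grey line marks IgG) for aPD-1 (circles), aPD-1+CD8 (squares) and IFNg (triangles), worked out from the 5 tables on 1 common scale, with no error. The circle is the lowest of the 4 groups for 38 members, and the squares have a median of 108% on this scale, where the median of 5706 genes is 100.3% (83.8% and 74.9% where the tables are not rescaled).

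Interferon-gamma is a cytokine that activated T cells release. The authors' deposited table for IFNg v IgG called 1 of 43 members higher and 1 lower, while 2.73% of the 11478 genes tested were called higher and 1.38% lower. With 1 member called in each direction, the calls were near the shares over all genes tested and did not set the members apart as a group. The called members, Ccne1 and Ccne2, were E cyclins, and they moved in opposite directions. Ccne1 had group means of 31.5 counts in IgG, 30.6 in aPD-1, 37.8 in aPD-1+CD8 and 66.5 in IFNg, and its log2 fold change in the authors' deposited table for IFNg v IgG was 0.80 ± 0.25 (adjusted p = 0.034). Ccne2 stood at 297, 178, 287 and 155 counts in the same order, with -0.78 ± 0.21 (adjusted p = 0.0068) in the authors' deposited table for IFNg v IgG. By group mean, which carries no error, the IFNg cultures were the highest of the 4 groups for Ccne1 and the lowest for Ccne2. Neither gene was called in IFNg v aPD-1, so these ranks against the aPD-1 group were not borne out by a call. The Ccne1 call was lost at an adjusted p under 0.01, at a mean count of at least 100, which it does not reach, and with scores divided by their robust SD of 1.11. Both calls were lost where a size of 1 was asked of the deposited fold changes, which look shrunken. The log2 ratio of IFNg to IgG group means, which are not shrunken, was 1.08 for Ccne1 and -0.94 for Ccne2.

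The other 41 members were not called with IFNg against IgG, and 6 members in all, these cyclins included, had an unadjusted p under 0.05, as did 11.8% of all genes tested. The members' median fold change was -0.14, against 0.01 over all genes tested. Prim1 came closest, at -0.54 ± 0.18 (95% interval -0.90 to -0.19; adjusted p = 0.059) in the authors' deposited table, with 176 counts in IFNg against 269 in IgG. Rrm1 had -0.40 ± 0.15 (adjusted p = 0.15), with 1732 counts against 2325. E2f1 had 0.07 ± 0.16 (adjusted p = 0.97), Pcna -0.07 ± 0.18 (adjusted p = 0.97) and Slbp -0.15 ± 0.16 (adjusted p = 0.86) in the authors' deposited table. The MCM2-7 subunits ran from -0.27 to 0.04, none called. Furthest from a call in their roles were Mcm5 at 0.03 ± 0.17 and Rpa2 at 0.04 ± 0.24 (both adjusted p = 0.99), Gins1 at -0.04 ± 0.16 and Pola2 at 0.06 ± 0.21 (both adjusted p = 0.98), Chaf1b at -0.09 ± 0.22 (adjusted p = 0.97) and Tk1 at 0.18 ± 0.23 (adjusted p = 0.90) in the authors' deposited table. By group mean the median member stood at 90.8% of IgG with IFNg, with a range from 52.2% (Ccne2) to 211% (Ccne1).

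Compared directly with the PD-1 antibody cultures, the IFNg cultures had higher levels of many replication genes. In the authors' deposited table for IFNg v aPD-1, 19 of 43 members were called higher and 0 lower, while 8.39% of the 12260 genes tested were called higher and 7.13% lower. The median of the members was 0.55, from -0.17 to 1.27, against 0.00 over all genes tested. Among members with a mean count of at least 100, 18 of 31 were called higher, and 11.9% of all such genes were. Again the aPD-1 samples are shared with the other comparisons.

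The called genes were mostly licensing, helicase and polymerase genes. Licensing gave 7 of 11, helicase activation 3 of 5 and the polymerases 4 of 6, against 2 of 10 clamp and loader genes, 0 of 4 nucleotide enzymes, 2 of 4 chromatin genes and 1 of 3 regulators; the difference between roles was not tested. Cdt1 led with 1.27 ± 0.25 (adjusted p = 8.1e-06) in the authors' deposited table, with group means of 144 counts in aPD-1 and 363 in IFNg. Mcm10 had 1.21 ± 0.25 (adjusted p = 4.1e-05) and Pola1 0.73 ± 0.15 (adjusted p = 3.8e-05) in the authors' deposited table. Fen1 rose by 0.63 ± 0.19 (adjusted p = 0.0068), Uhrf1 by 0.75 ± 0.22 (adjusted p = 0.0064) and E2f1 by 0.68 ± 0.21 (adjusted p = 0.011) in the authors' deposited table. Of the MCM ring, 5 of 6 subunits were called, and Mcm4 was not, at 0.31 ± 0.16 (adjusted p = 0.18). Rrm1 had 0.23 ± 0.18 (adjusted p = 0.45) and Rrm2 0.22 ± 0.19 (adjusted p = 0.53) in the authors' deposited table. Ccne1 had 0.94 ± 0.39 (adjusted p = 0.079), a larger value than most called members with a larger SE, and Ccne2 had -0.17 ± 0.25 (adjusted p = 0.75). Pcna had 0.29 ± 0.25 (adjusted p = 0.51), Slbp -0.05 ± 0.20 (adjusted p = 0.93) and Pold1 -0.06 ± 0.20 (adjusted p = 0.91) in that deposited table. Orc6 at 0.22 ± 0.29 (adjusted p = 0.71), Gins2 at 0.34 ± 0.35 (adjusted p = 0.62), Rfc3 at 0.09 ± 0.19 (adjusted p = 0.83) and Tk1 at 0.04 ± 0.29 (adjusted p = 0.96) were furthest from a call in their roles. At an adjusted p under 0.01 the count was 9, at a size of at least 1 it was 2, and with scores divided by their robust SD of 1.57 it was 1, Cdt1.

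**Figure D4:**
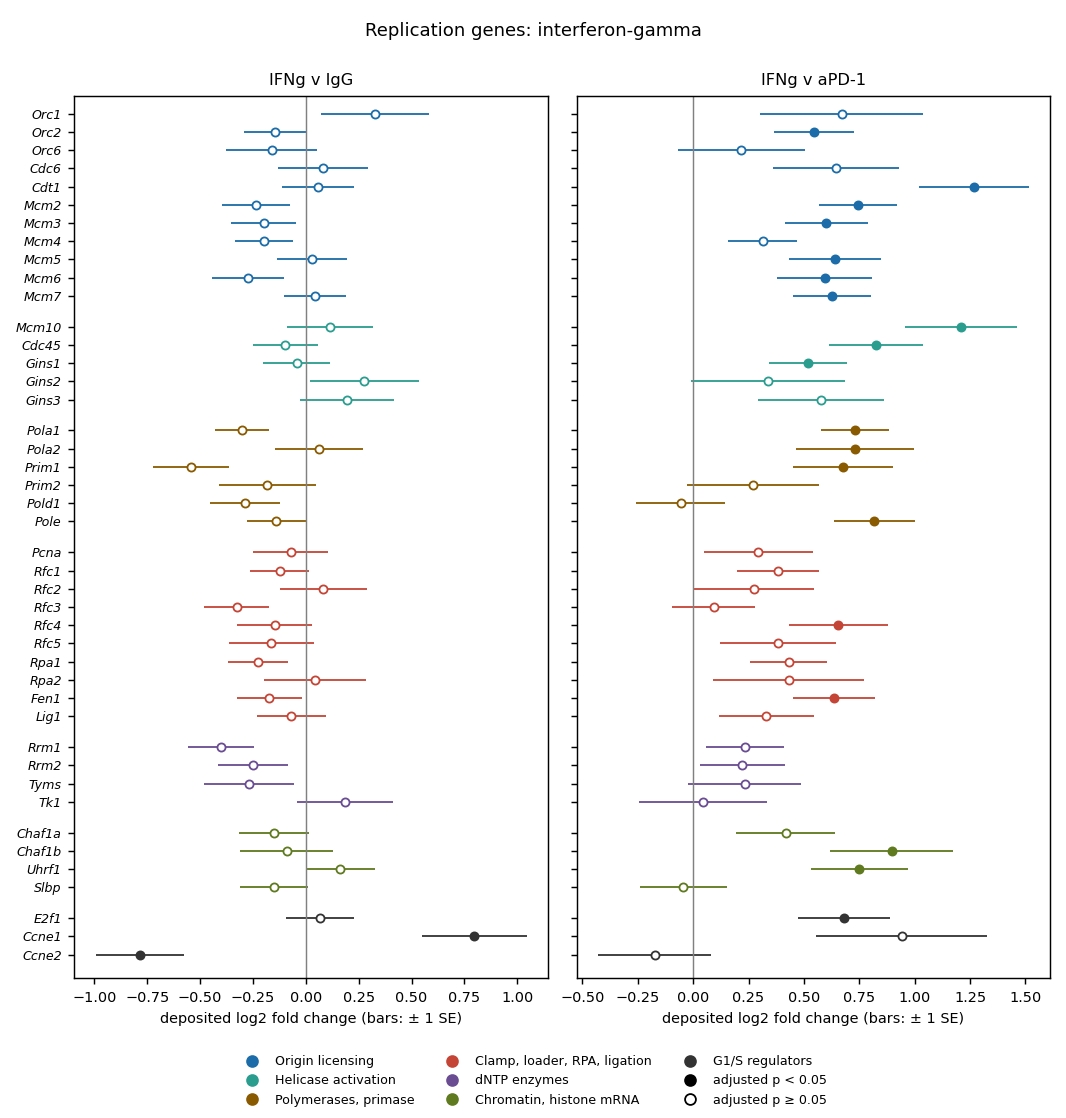
Deposited log2 fold change of each of the 43 members (points) with 1 SE on either side (bars), for IFNg v IgG on the left and IFNg v aPD-1 on the right, coloured by role; filled points have an adjusted p under 0.05 (DESeq2). On the left only Ccne1 (0.80) and Ccne2 (-0.78) are filled, and on the right 19 members are filled, all above 0.

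Other genes of the replication fork were lower with the PD-1 antibody too. They were listed by function, but with earlier results of these data known, and are not independent evidence. Of 43 such genes, 17 were called lower and 0 higher in the authors' deposited table for aPD-1 v IgG, with a median of -0.45. Over all genes tested there, 10.0% were called lower and 8.50% higher, the shares to set beside this list and those below. Hells, a chromatin remodeller of replicating heterochromatin, fell by 0.98 ± 0.13 (adjusted p = 2.2e-11), from 1781 to 912 counts by group mean. Cdc7, the kinase that fires licensed origins, fell by 0.96 ± 0.19 (adjusted p = 1.7e-05), and Dtl, which guides Cdt1 to destruction, by 0.71 ± 0.14 (adjusted p = 1e-05) in the authors' deposited table. Dnmt1, the maintenance DNA methyltransferase that works with Uhrf1, fell by 0.55 ± 0.16 (adjusted p = 0.0038). In aPD-1+CD8 v aPD-1 18 of these 43 were called higher, in IFNg v IgG 0 in either direction, and in IFNg v aPD-1 7 higher. E2F words were in 13 of 35 of their windows (37.1%).

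Genes that supply nucleotides had the lowest median of the lists, -0.68 in aPD-1 v IgG, and 22 of 28 were called lower and 0 higher. Those that fell include 1-carbon and purine enzymes that serve RNA as well as DNA. Shmt2, the mitochondrial serine hydroxymethyltransferase, had group means of 4557 counts in IgG, 1785 in aPD-1, 4711 in aPD-1+CD8 and 5318 in IFNg. It fell by 1.37 ± 0.12 in aPD-1 v IgG (adjusted p = 1.7e-25) in the authors' deposited table. Mthfd2, its partner in mitochondrial folate metabolism, fell by 1.28 ± 0.18 (adjusted p = 1.3e-10) and Atic, of purine synthesis, by 1.09 ± 0.15 (adjusted p = 4.6e-11) in the authors' deposited table. In IFNg v aPD-1, 17 of 28 were called higher, Shmt2 by 1.56 ± 0.16 (adjusted p = 2.2e-20), while 0 of the 4 member enzymes that make deoxynucleotides were. Samhd1, which breaks deoxynucleotides down, was the 1 gene of the list called in IFNg v IgG. It stood at 291 counts in IgG, 221 in aPD-1, 320 in aPD-1+CD8 and 898 in IFNg by group mean, with 1.45 ± 0.16 (adjusted p = 1.9e-16) in the authors' deposited table for IFNg v IgG. With aPD-1 it had -0.43 ± 0.20 against IgG (adjusted p = 0.13).

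Genes of G1/S control, a list that includes E2F factors, were called lower for 10 and higher for 1 of 29 tested in aPD-1 v IgG, with a median of -0.28. Ccnd1, cyclin D1, went from 1137 counts in IgG to 294 in aPD-1, and stood at 994 in aPD-1+CD8 and 1163 in IFNg; it fell by 1.90 ± 0.19 in aPD-1 v IgG (adjusted p = 8.2e-22, the authors' deposited table). Myc, a transcription factor of growth genes, had 1627, 555, 1675 and 2032 counts in that order and fell by 1.55 ± 0.15 (adjusted p = 8.2e-24). Mybl2, a cofactor of late cell cycle promoters, fell by 1.01 ± 0.14 (adjusted p = 3.2e-11), and E2f5, a repressive E2F, rose by 0.47 ± 0.17 (adjusted p = 0.035) in the authors' deposited table. The CDK inhibitors Cdkn1a at 0.31 ± 0.30 (adjusted p = 0.56) and Cdkn2a at -0.57 ± 0.40 (adjusted p = 0.38) were not called. In IFNg v IgG the list had 2 genes called lower: Rb1, the retinoblastoma protein, at -0.81 ± 0.22 (adjusted p = 0.008), and Cdk2, the kinase partner of the E cyclins, at -0.41 ± 0.13 (adjusted p = 0.039) in the authors' deposited table.

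Genes of G2 and mitosis, the phases that follow, had a median nearer to 0. Of 35, 7 were called lower and 0 higher in aPD-1 v IgG. The share called lower was above the 10.0% of all genes tested, and 8.50% of those were called higher. The list had a median of -0.06, and its group means had a median of 97.9% of IgG with aPD-1, against 66.9% for the members. Mki67, the antigen behind Ki-67 staining, had group means of 1297 counts in IgG and 1298 in aPD-1, and -0.03 ± 0.17 (adjusted p = 0.95) in the authors' deposited table. Top2a, the topoisomerase of chromosome segregation, had -0.23 ± 0.12 (adjusted p = 0.17). Those called included Anln, needed for cytokinesis, at -0.75 ± 0.14 (adjusted p = 6.5e-07), Ect2 at -0.54 ± 0.14 (adjusted p = 0.0015) and Cdc25b at -0.72 ± 0.22 (adjusted p = 0.0083) in the authors' deposited table. In aPD-1+CD8 v aPD-1, 6 of 35 were called higher (7.82% of all genes tested), in IFNg v IgG 0 (2.73%), and in IFNg v aPD-1 2 (8.39%). The members and the mitotic genes were not tested against each other.

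**Figure D5:**
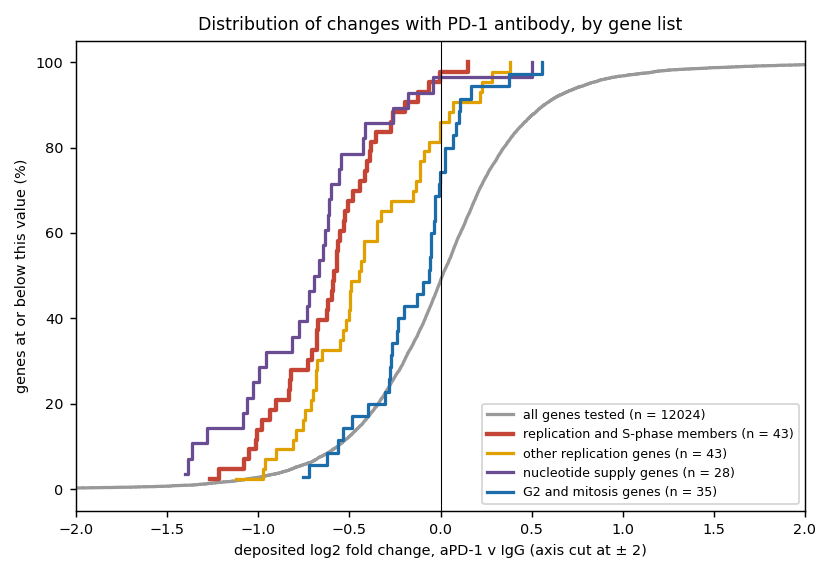
Cumulative share of genes (y, percent) at or below each deposited log2 fold change of aPD-1 v IgG (x, cut at 2 on either side) for all 12024 genes tested, the 43 members, 43 other replication genes, 28 nucleotide supply genes and 35 G2 and mitosis genes. The members' curve crosses the middle of the scale at -0.59, that of the G2 and mitosis genes at -0.06.

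Checkpoint and repair genes had 8 of 21 called lower and 0 higher in aPD-1 v IgG, with a median of -0.47. Fancd2, of the Fanconi anaemia pathway, fell by 1.06 ± 0.20 (adjusted p = 4.9e-06) in the authors' deposited table. Atm, the kinase that signals DNA breaks, fell by 0.56 ± 0.15 (adjusted p = 0.0014) in aPD-1 v IgG and rose by 0.46 ± 0.13 (adjusted p = 0.022) in IFNg v IgG. Ribosomal protein genes, which are no part of the replication machinery, had 9 of 25 called lower and 0 higher in aPD-1 v IgG, with a median of -0.29 in the authors' deposited table.

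Transcripts listed here as markers of other cell types moved in the same comparison. RNA came from whole cultures, and which cells these transcripts came from was not tested. Of 11 fibroblast markers, 10 were listed in the authors' deposited table for aPD-1 v IgG and 8 tested; Col1a1, Col3a1, Dcn and Pdgfra were called higher, Dcn by 2.09 ± 0.17. Pdgfrb at -0.28 ± 0.21, Fap at -0.48 ± 0.35, Col1a2 at 0.24 ± 0.42 and Acta2 at 0.93 ± 0.39 were not called there, and Lum and Postn, at 1.55 and 1.59 counts, were not tested. Summed over the 10, the group means came to 3091 counts in IgG, 9739 in aPD-1, 2824 in aPD-1+CD8 and 2989 in IFNg. The genes called higher in aPD-1 v IgG had the largest mean counts there, so they weigh most in these sums. The near-equal IgG and IFNg sums hide opposite moves. In IFNg v IgG, of 8 tested, Col1a1, Col3a1 and Fap were called lower and Dcn and Acta2 higher. Macrophage markers summed to 421, 305, 395 and 632 counts over 12 of 13 genes, with Cd14 called higher and Mertk lower in aPD-1 v IgG. Mertk had the largest mean count of them in that comparison, 145, and fell by 0.90 ± 0.22. Of the 10 tested there, 8 lay below 0 and 2 above, and 8 were not called. The IFNg sum rested on Csf1r, singled out after its values were seen, at 367 counts in IFNg against 26.5 in IgG and given no p in the authors' deposited table for IFNg v IgG. Without it the sums were 395, 284, 367 and 265 counts, and that table called Mrc1 lower at -1.29 ± 0.28 (adjusted p = 0.0002) and Mertk lower at -0.86 ± 0.19 (adjusted p = 0.00034). Endothelial markers summed to 59.8, 115, 61.3 and 96.2 counts over 6 of 7, and the higher aPD-1 sum rested on Cdh5, at 27.2 counts in IgG and 90.2 in aPD-1, the 1 of them called higher. Flt1 had -0.47 ± 0.36 in the authors' deposited table for aPD-1 v IgG, not called, and the other 5 were at 0.13 to 1.18 counts. T and NK cell markers were near 0 in that comparison: 6 of 16 were listed in the authors' deposited table for aPD-1 v IgG, with mean counts from 0.30 to 1.75, and none was tested. In IFNg v aPD-1 Lck, at 6.15 mean counts, was called higher at 1.37 ± 0.51 (adjusted p = 0.044, DESeq2). B cell markers were at or near 0 except Pax5, at 17.0 counts, which was called lower. Pax5 was called higher in aPD-1+CD8 v aPD-1 and in IFNg v aPD-1. Neutrophil markers summed to 2.10 over the 2 of 6 listed. Epithelial markers were also near 0 although MC38 is known as a colon carcinoma line, with mean counts of 0.15 for Epcam, 1.83 for Cdh1 and 3.68 for Krt19, the 1 of them called lower. The part of these transcripts in the replication results was not tested.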

How the data were processed

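RNA was sequenced by exome capture from 250 ng of total RNA per sample, per the labels' protocols. The authors deposited 5 comparison tables made with DESeq2 on build mm9, per the submitters' processing notes. No aligner, counter, annotation, use of strand or DESeq2 version is named (not given in the sources used here). Each table gives, per the file headers, the deposited mean normalized count (a signal after scaling for library size), log2 fold change, its SE, a Wald score and p-value with adjusted p-value. There were 0 columns of single samples, so no test was refitted, and every p is the authors' DESeq2 Wald p. An adjusted p left empty stayed empty, and such a gene counted as not tested. The 95% intervals are the fold change plus and minus 1.96 SE. The authors' scores, p-values and adjusted p-values were recomputed as a check.

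Groups were taken from the treatment label. Group means were solved by least squares, each table's mean count being taken as the mean of its 2 groups. The tables proved to be on different scales, so, after seeing the data, each was rescaled by the median ratio to aPD-1 v IgG over the 5706 genes whose mean count reached 100 in all 5 tables. The largest median misfit of a table was then 0.129% of the mean count, and the solver was tested on simulated data. Promoter letters were read from RefSeq windows of GRCm38.p6, which is another build than mm9 and was matched by symbol only.

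Members, gene lists and tests were chosen with earlier results of these data known, so they are not independent evidence. Named with full statistics were, per role and comparison with calls, the called member with the smallest p, any called in the minority direction and the member with the largest p, always E2f1, Ccne1, Ccne2, Pcna and Slbp, and up to 3 called genes of each other list plus Mki67, Top2a, Cdkn1a, Cdkn2a, Myc, Ccnd1, Samhd1 and Dnmt1; other members were named after their values were seen. A gene that this rule would name is not reported here. Alternatives were other thresholds, size minimums, count filters, centring, a widened null, other table scales and a shorter promoter window. Python 3.11.15, numpy 2.4.6, pandas 2.3.3, scipy 1.17.1 and matplotlib 3.10.9 were used.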

Additional observations from a re-analysis of the deposited data

How the results depend on the processing

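At an adjusted p under 0.01 the calls lost were 5 of 28 in aPD-1 v IgG, 8 of 27 in aPD-1+CD8 v aPD-1, 1 of 2 in IFNg v IgG and 10 of 19 in IFNg v aPD-1, and re-centring the fold changes lost none in these comparisons. With no filter on low counts, 2 of 27 calls were lost in aPD-1+CD8 v aPD-1 and 2 of 19 in IFNg v aPD-1, and 0 in aPD-1 v IgG and IFNg v IgG. With a size of at least 1 on the log2 scale, 6 members were lower in aPD-1 v IgG, 6 higher in aPD-1+CD8 v aPD-1, 0 lower and 0 higher in IFNg v IgG and 2 higher in IFNg v aPD-1. With Wald scores divided by their robust SD, an empirical null, those counts were 8 lower, 9 higher, 1 lower and 0 higher in IFNg v IgG and 1 higher in IFNg v aPD-1. Under an adjusted p of 0.01 IFNg v IgG had 0 members higher and IFNg v aPD-1 had 9. Adjusting over genes that reach a mean count of 100 gave 2 lower and 0 higher in IFNg v IgG, where fewer genes are tested and Ccne1 is left out. The aPD-1+CD8 group mean was 83.8% of IgG at the median when the tables were not rescaled, an alternative added after seeing the data, against 108% as reported; the median of 5706 genes went from 100.3% to 74.9% with it. E2F words were in 11.1% of member windows of 100 bases before the start (1.81% of genes tested, 0.981% of all genes), against 36.1% of the whole window (4.84% and 2.61%); the shorter window holds fewer letters. Low counts limit what can be called: members under 100 counts had SEs of at least 0.23 in aPD-1 v IgG. No paired analysis was possible because the tables hold no columns of single samples; leaving out a replicate was not possible for the same reason.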
